A study of Mus musculus with 4 samples.

Results

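The genes described are the nuclear genes of the mitochondrial respiratory chain, chosen by gene symbol with earlier results of these data known. The rule, which uses no dose, takes all probes named Nduf, Sdha to Sdhd, Uqcr, Cox4 to Cox8 or Atp5, plus Cycs. It leaves out the muscle isoform genes Cox7a1, Cox8b and Cox6a2. Of 106 such probes for 83 genes, 95 probes for 78 genes had a detection p under 0.01 on at least 1 of 4 arrays, and these 78 are the members, among 8383 named genes that passed the same filter. They comprised 39 genes of complex I, 3 of complex II, 6 of complex III, Cycs, 13 of complex IV and 16 of complex V. The probes of Ndufs1, Uqcrfs1, Uqcrq, Cox7b2 and Cox8c did not pass, and Sdha was not analysed here. Matching was by symbol, so assembly factors named Ndufaf and the pseudogene symbol Ndufs5-ps are included.

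The mitochondrial respiratory chain passes electrons from NADH and succinate to oxygen through complexes I to IV, with cytochrome c as the mobile carrier between complexes III and IV, and complex V, the ATP synthase, uses the proton gradient so built. Most of its subunits are encoded in the nucleus. Brown fat is rich in mitochondria, and its uncoupling protein lets protons return to the matrix without ATP being made.

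The RNA came from tissue labelled as thyroid of Balb/c mice in a study of iodine-131, sampled at 24 h. The arrays, Illumina BeadChips, carried 1 sample each, with an absorbed dose of 0.85 Gy, 8.5 Gy or 17 Gy, or of 0 Gy for the unirradiated control. There were no replicates, so no difference below has a replicate error, a test or a p-value, and the number of arrays limits every statement. The labels do not say how many mice each sample holds. Of 9 thyroid follicular genes with a probe, only Tshr was detected, on all 4 arrays; Tg, Slc5a5 and Pax8 were detected on none. Of 10 brown fat genes with a probe, 7 were detected on at least 1 array and 6 on all 4, and Dio2, Prdm16 and Zic1 on none. The brightest, Ucp1 and Cidea, had intensities between 8411 and 18726 on every array, and Elovl3, Ebf2 and Kcnk3 between 353 and 1055. The summed intensity of 14 skeletal muscle markers was 1231, 1480, 139174 and 1604 in order of dose, with all 14 detected on the 8.5 Gy array and 1, 2 and 7 on the 0, 0.85 and 17 Gy arrays. That of 10 salivary gland markers was 1688, 1534, 1450 and 15868, with 2, 1, 1 and 9 detected. Probes detected on an array numbered 9996 to 10528.

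Over the 78 genes, levels on the 0.85 and 8.5 Gy arrays lay above those on the 0 Gy array by small amounts, and those on the 17 Gy array did not. The values are log2 intensities after background correction and quantile normalization of the 4 arrays. The median log2 difference was 0.19 at 0.85 Gy, 0.16 at 8.5 Gy and -0.04 at 17 Gy, each against 0 Gy, while the median over all 8383 genes was 0.00, -0.04 and 0.00. These 3 comparisons share the 0 Gy array. The size depended on the scaling: with each array scaled to its 75th percentile in place of quantile normalization, the members' medians were 0.39, 0.31 and -0.11, against 0.02, -0.04 and -0.03 over all genes. The values below are on the quantile scale, 4 intensities of a gene are in the order 0, 0.85, 8.5 and 17 Gy, and 3 values of a gene or median are log2 differences from 0 Gy at 0.85, 8.5 and 17 Gy. Several bright genes change sign between the scales. At 0.85 Gy, 54 of the 78 genes were above 0, against 49.3% of all genes. The numbers above 0 were 53 at 8.5 Gy, against 45.2% of all genes, and 33 at 17 Gy, against 49.4%. In bulk tissue, fewer cells of a type and less RNA per cell cannot be told apart.

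Large differences were few, and most members lay within 1.5-fold of their 0 Gy level. At 0.85 Gy, 13 genes were at least 1.5-fold higher, against 8.72% of all genes, and 1 was at least 1.5-fold lower, against 11.7%. The 13 were Ndufs3, Ndufc2, Ndufb2, Ndufb4, Ndufb9, Ndufb11, Ndufaf3, Ndufaf7, Sdhd, Cycs, Atp5g2, Atp5o and Atp5pb, and the lower one was Atp5mpl. At 8.5 Gy, 9 were higher, which is 11.5% of the members against 8.73% of all genes, and 0 were lower, against 12.2%. These 9 were Ndufs3, Ndufb11, Ndufaf5, Ndufaf7, Sdhd, Cycs, Atp5g1, Atp5o and Atp5pb. At 17 Gy, 2 were higher, against 4.76%, and 3 were lower, against 4.40%. The higher ones were Cycs and Uqcrb, and the lower ones Atp5a1, Atp5k and Cox7a2. Under the authors' normalized values, with 16 added before log2, 1 was higher and 2 were lower, against 0.752% and 0.441% of all genes. How these few genes compare with all genes therefore depends on the setting. At 0.85 Gy 0 genes were 2-fold higher or lower, against 1.63% and 3.38% of all genes. At 8.5 Gy Cycs and Atp5pb were 2-fold higher, against 2.47%, and 0 genes were lower, against 3.40%. At 17 Gy 0 genes were 2-fold higher, against 0.823%, and Atp5k had a fitted difference past 2-fold downward, against 0.429%.

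**Figure D1:**
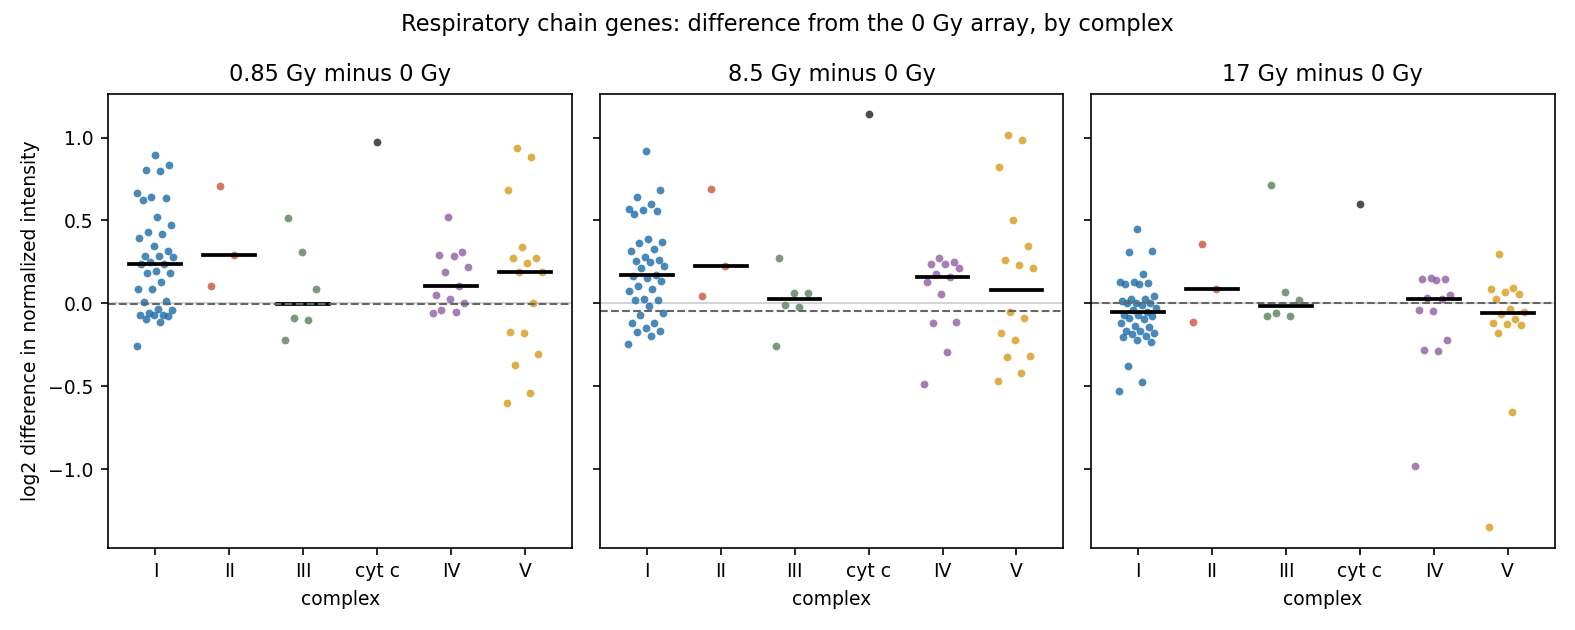
Log2 difference of each of the 78 genes on the 0.85, 8.5 and 17 Gy arrays from the 0 Gy array (vertical axis), by complex (horizontal axis). Points are genes, black bars are the medians of complexes with several genes, and the dashed line is the median of all 8383 genes; the complex I median lies at 0.24 and 0.17 in the first panels and at -0.05 at 17 Gy, and the complex III median stays between -0.02 and 0.03.

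Seen by the array on which a gene stood highest, 40 of the 78 genes had their highest level on the 0.85 Gy array, against 28.4% of all genes. The 8.5 Gy array was the highest for 20 genes (22.4% of all genes), the 0 Gy array for 14 (25.3%) and the 17 Gy array for 4 (24.0%). The lowest level was on the 17 Gy array for 28 genes (20.9% of all genes), on the 0 Gy array for 25 (22.7%), on the 8.5 Gy array for 14 (31.3%) and on the 0.85 Gy array for 11 (25.1%). The members therefore did not follow the order of dose: the arrays at either end of the dose range held most of the lowest values.

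Complex I, the NADH dehydrogenase, had median log2 differences of 0.24 at 0.85 Gy, 0.17 at 8.5 Gy and -0.05 at 17 Gy over its 39 genes. At each of the lower doses 29 of them were above 0, and at 17 Gy 14 were. Of all genes, 49.3%, 45.2% and 49.4% were above 0 in order of dose. Some of the core subunits carry the flavin and iron-sulfur clusters or line the quinone site. Ndufs3, a core subunit of the matrix arm, had intensities of 3820, 9268, 7464 and 4802 at 0, 0.85, 8.5 and 17 Gy, and log2 differences from 0 Gy of 0.81, 0.60 and 0.32. All dosed arrays were above the 0 Gy array for this gene. The other core subunits differed less. Ndufv1, which binds the flavin, had intensities of 12912, 17801, 15384 and 11562 and log2 differences of -0.07, -0.17 and -0.17, which with scaling to the 75th percentile were 0.18, 0.07 and -0.26. Ndufs7 had differences of 0.18, -0.20 and -0.14, Ndufs8 0.18, 0.26 and -0.18, and Ndufv2 0.25, 0.11 and -0.03. Raw intensities were generally higher on the 0.85 and 8.5 Gy arrays, whose means over all probes were 426.5 and 393.8, against 324.3 at 0 Gy, so a raw increase can be a normalized decrease.

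The NDUFB genes encode accessory subunits of the membrane arm of complex I. Of the 10 measured, 9 were above 0 at 0.85 Gy and 9 at 8.5 Gy, with medians of 0.44 and 0.35. At 17 Gy 4 were above 0, with a median of 0.00. Of all genes, 49.3%, 45.2% and 49.4% were above 0 in order of dose. The median intensity at 0 Gy was 1200 over these 10 genes and 6818 over the 18 other accessory subunits of complex I. Dimmer members had larger differences at 0.85 and 8.5 Gy, as given below, and the part of brightness was not tested. Ndufb4 had intensities of 392, 817, 621 and 490 and log2 differences of 0.84, 0.57 and 0.31. Ndufb9 had intensities of 1329, 2745, 2086 and 1012 and differences of 0.64, 0.37 and -0.53: it was highest at 0.85 Gy and lowest at 17 Gy. Ndufb5 and Ndufb10 were also lower at 17 Gy, with log2 differences of -0.38 and -0.47. Ndufb11 had intensities of 101, 152, 135 and 108, was not well above background at 0 Gy, and was at least 1.76-fold higher at 0.85 Gy and at least 1.48-fold higher at 8.5 Gy. Ndufb8, with intensities of 19781, 28503, 23712 and 19275, lay within 0.13 of its 0 Gy level in each comparison.

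The other 18 accessory subunits of complex I had medians of 0.09, 0.08 and -0.08, and lay between -0.26 and 0.67 at 0.85 Gy, between -0.25 and 0.56 at 8.5 Gy and between -0.23 and 0.12 at 17 Gy. Ndufa13 stood at 0.09, 0.03 and 0.02. Ndufc2, a subunit at the base of the membrane arm, had intensities of 4085, 9141, 7838 and 4267 and differences of 0.67, 0.56 and 0.03. Ndufa9 stood at 0.43, 0.36 and -0.14, and Ndufa10 at -0.26, -0.15 and -0.05. Ndufa4, which carries a complex I name but is now counted with complex IV, stood at -0.08, -0.12 and -0.12. The probe named Ndufs5-ps, for a pseudogene whose near-identical parent it may also read, stood at 0.31, 0.28 and 0.00. The 5 assembly factor genes, whose products help build complex I without staying in it, included Ndufaf5 at 0.20, 0.92 and 0.13, with intensities of 301, 421, 570 and 337 that were highest on the 8.5 Gy array. Ndufaf4 stood at -0.04, 0.56 and 0.18, Ndufaf7 at 0.80, 0.68 and -0.20, and Ndufaf3, with intensities of only 104 to 146, at 0.64, 0.21 and 0.45. At its other probe Ndufaf5 stood at 0.38, 0.71 and -0.30, so its direction at 17 Gy depends on the probe. Several of these calls were lost under other settings. At 0.85 Gy the difference was under 1.5-fold under 4 of 8 settings for Ndufaf3, 3 of 8 for Ndufb11, 2 of 8 for Ndufaf7, 2 of 9 for Ndufb2 and 1 of 9 for Ndufb9. At 8.5 Gy it was so under 3 of 8 for Ndufaf7 and for Ndufb11. These genes had a single detected probe each, so the settings of detection filter, probe choice and membership could not change their values. Ndufaf3 lost its call under every setting that could. These were no background correction, scaling to the 75th percentile, the authors' values and an offset of 50 added before log2.

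Complex II, succinate dehydrogenase, joins the tricarboxylic acid cycle to the chain. Its 3 measured genes were all above 0 at 0.85 Gy and at 8.5 Gy, against 49.3% and 45.2% of all genes. Sdhd, a membrane anchor, had intensities of 858, 1762, 1577 and 1120 and log2 differences of 0.71, 0.69 and 0.36, so that the 0 Gy array was the lowest. Sdhc, the other anchor, stood at 0.11, 0.04 and 0.09. Sdhb, the iron-sulfur subunit, stood at 0.29, 0.23 and -0.11 at its brightest probe, at 0.56, 0.54 and -0.25 at a second, and at 1.22, 0.92 and 0.21 at its dimmest, whose intensities were 139, 282, 227 and 157.

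Complex III, the cytochrome bc1 complex, had medians of 0.00, 0.03 and -0.02 over 6 genes, near the 0 Gy level on the quantile scale, and of 0.23, 0.20 and -0.11 with scaling to the 75th percentile. The core protein genes Uqcrc1 and Uqcrc2 stood at 0.31, -0.01 and 0.02 and at -0.22, -0.26 and -0.07. Uqcrb, a ubiquinone-binding subunit, was the exception at 17 Gy: its intensities were 2089, 4022, 3140 and 3381 and its log2 differences 0.51, 0.27 and 0.72, and its 0 Gy value was the lowest. Uqcrh, Uqcr10 and Uqcr11, small subunits with intensities of 13415 to 32978, differed by -0.10 to 0.08 in all comparisons. Cyc1, the cytochrome c1 gene, whose symbol lies outside the rule, stood at 0.30, 0.21 and -0.03.

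Cycs, the somatic cytochrome c gene, had, at its brighter probe, the largest difference of the 78 genes at 0.85 and at 8.5 Gy. There the intensities were 303, 671, 663 and 442 and the log2 differences 0.97, 1.14 and 0.60. At its other probe the intensities were 263, 326, 331 and 317 and the differences 0.01, 0.22 and 0.27. The probes thus disagreed on the size at each dose, and the value of Cycs depends on the probe. At 17 Gy its difference was under 1.5-fold under 6 of 9 other settings. The remaining settings, of detection filter and membership, could not change its value.

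Complex IV, cytochrome c oxidase, had medians of 0.10, 0.16 and 0.03 over 13 genes (with scaling to the 75th percentile, 0.27, 0.28 and -0.08, so that the sign at 17 Gy turned), and 0 of them were 1.5-fold higher in any comparison, against 8.72%, 8.73% and 4.76% of all genes, which for 13 genes is about 1 gene or fewer. At 17 Gy 1 was 1.5-fold lower, Cox7a2, against 4.40% of all genes. At 0.85 Gy the 13 lay between -0.06 and 0.52, and at 8.5 Gy between -0.49 and 0.28. Cox5b stood at -0.05, 0.06 and -0.22. Cox4i1, the common form of a regulatory subunit, had intensities of 13612, 19955, 16720 and 13813 and differences of 0.05, -0.11 and 0.05, and with scaling to the 75th percentile 0.27, 0.11 and -0.08. Cox4i2, its hypoxia-inducible alternative, had intensities of 103, 122, 106 and 106, near background on every array and not well above it at 8.5 Gy. Cox6a1 stood at 0.29, 0.18 and 0.16 and Cox6b1 at 0.22, 0.25 and 0.03, and at their dimmer probes both were below 0 at 17 Gy, at -0.13 each, so that direction depends on the probe. Cox6b2, a testis form, stood at 0.19, -0.29 and 0.15 with intensities of 125 to 160. Cox8a stood at -0.04, -0.12 and 0.03.

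Cox7a2, the form of subunit VIIa found in most tissues, stood apart at 17 Gy. Its intensities were 732, 962, 992 and 429 and its log2 differences 0.03, 0.24 and -0.98. The 17 Gy array alone was low for it, close to 2-fold below the 0 Gy array. Cox7a2l, a relative that helps to join complexes III and IV, stood at 0.52, 0.28 and -0.28. Cox7a1 and Cox8b, the muscle and brown fat forms left out of the members, stood at 0.17, 0.17 and 0.00 and at 0.04, 0.12 and 0.00. Cox6a2 had intensities of 82, 97, 4745 and 97 and was at least 121-fold higher at 8.5 Gy, on the array where the skeletal muscle markers were detected.

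Complex V had medians of 0.19, 0.08 and -0.06 over 16 genes, and they are given by part of the enzyme. In the catalytic F1 head, Atp5b, the beta subunit, had intensities of 29063, 35423, 31277 and 27137 and differences of 0.00, -0.05 and -0.06. Atp5a1, the alpha subunit, had intensities of 4306, 5374, 4433 and 2891 and differences of -0.17, -0.32 and -0.66, with the 17 Gy array lowest. With scaling to the 75th percentile its differences were 0.03, -0.15 and -0.69. Atp5c1 stood at 0.19, 0.26 and 0.02, Atp5d at 0.25, -0.42 and -0.13, and Atp5e at 0.27, -0.22 and 0.06.

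The 4 genes of the stalk that holds the head still had medians of 0.58, 0.53 and -0.03. Atp5pb, subunit b, had intensities of 1391, 3372, 3382 and 1561 and log2 differences of 0.88, 1.01 and 0.07. Atp5o, the oligomycin sensitivity protein, had intensities of 250, 524, 437 and 275 and differences of 0.94, 0.82 and 0.09. For both genes the 0 and 17 Gy arrays lay together, below the other two. Atp5h stood at 0.27, 0.23 and -0.13. Atp5j stood at -0.37, -0.09 and -0.18 at its brighter probe and at 0.68, 0.57 and -0.03 at its dimmer one, so its direction at 0.85 and 8.5 Gy depends on the probe. Of the small membrane subunits, Atp5l stood at 0.34, 0.35 and -0.05 and Atp5j2 at 0.19, 0.21 and 0.09. Atp5mpl had intensities of 8391, 7949, 7995 and 8378 and differences of -0.60, -0.47 and -0.04, and its difference at 0.85 Gy was under 1.5-fold under 2 of 9 other settings. Atp5k had intensities of 119, 131, 126 and 89, was not well above background at 17 Gy, and was at least 1.66-fold lower there. Under 2 of 8 other settings its difference was under 1.5-fold, down to -0.48 on the log2 scale. Atp5mpl and Atp5k had a single detected probe each, so the settings of detection filter, probe choice and membership could not change their values. Atpif1, the inhibitor of the enzyme, whose symbol lies outside the rule, stood at -0.68, -0.54 and -0.31.

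Subunit c, which forms the rotating membrane ring, is made from 3 genes whose mature products are the same. Their patterns over the arrays differed. Atp5g1 had intensities of 743, 690, 1669 and 736 and log2 differences of -0.54, 0.99 and -0.10, high on the 8.5 Gy array alone, where all 14 skeletal muscle markers were detected; the part of muscle in this value was not tested. Atp5g2 had intensities of 897, 1809, 1471 and 1124 and differences of 0.68, 0.50 and 0.30, with the 0 Gy array lowest. Atp5g3 had intensities of 17569, 22318, 20490 and 16182 and differences of -0.18, -0.18 and -0.12, and of 0.06, 0.03 and -0.22 with scaling to the 75th percentile.

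**Figure D2:**
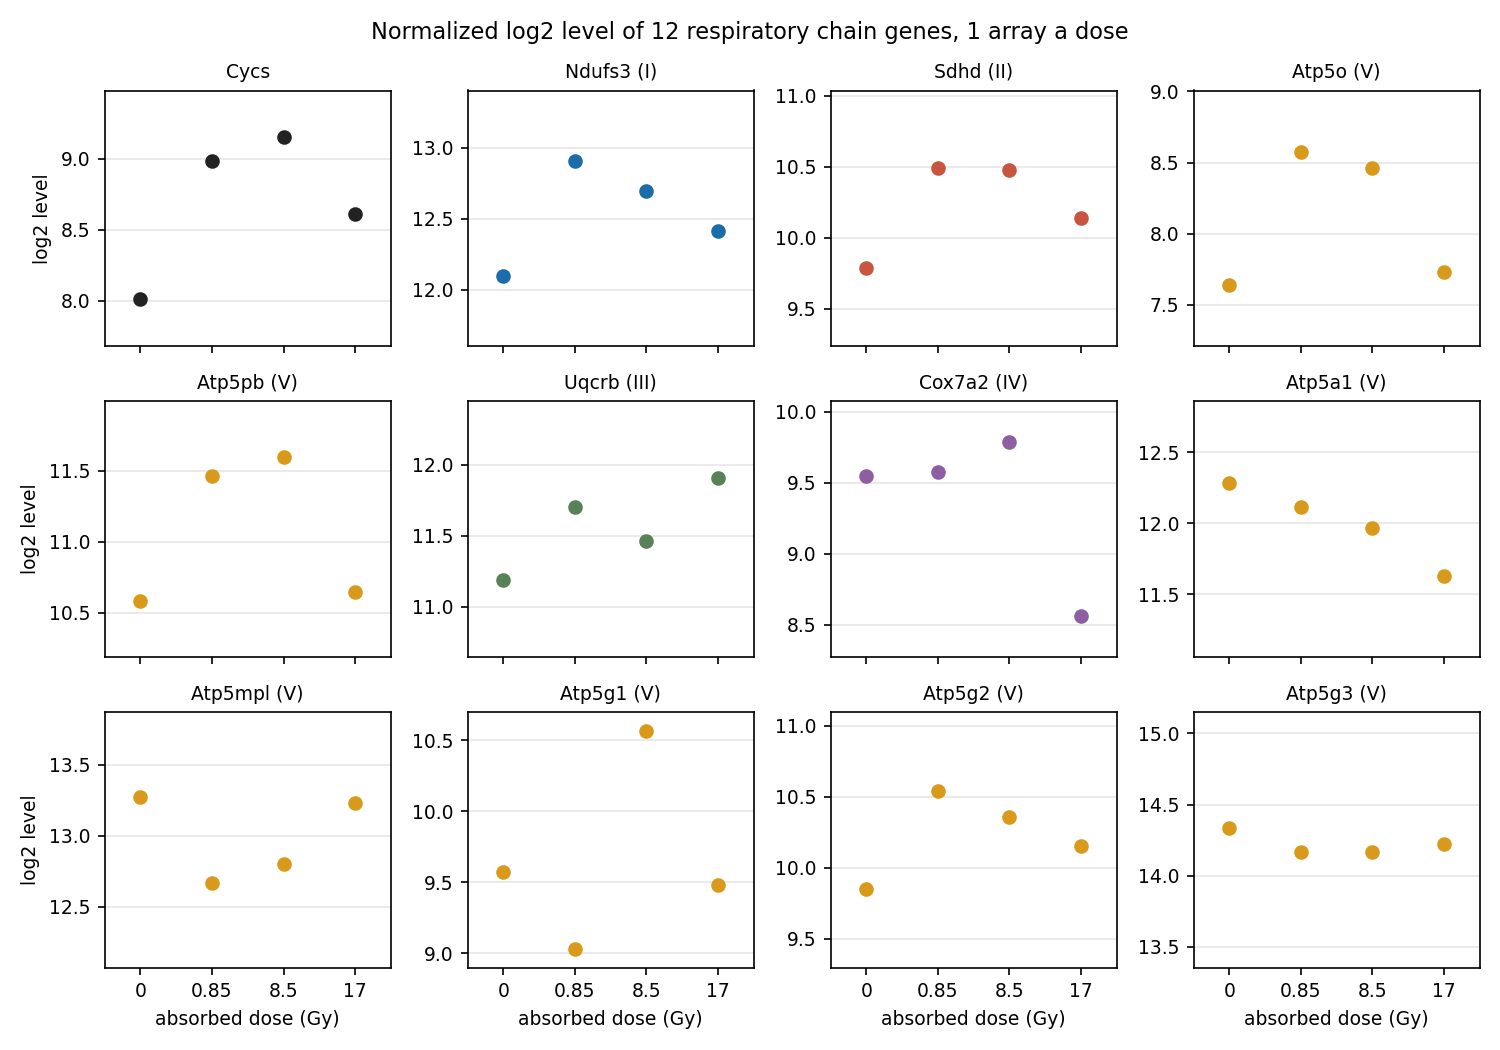
Normalized log2 level (vertical axis, each panel spanning 1.8 units) of 12 genes on the 4 arrays by absorbed dose in Gy (horizontal axis, evenly spaced), with 1 point an array and the complex in brackets. Atp5o and Atp5pb are high on the 0.85 and 8.5 Gy arrays, Atp5g1 is high on the 8.5 Gy array, and Cox7a2 is low on the 17 Gy array.

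Nuclear respiratory factor NRF1 and the ETS factor GABP are known to act on promoters of many respiratory chain genes, so the promoters were searched for a short core of each. Of the 78 genes, 67 had a RefSeq window of 250 bases before to 50 after the start (GRCm38.p6). The NRF1 core GCATGCG, on either strand, was in 13 of these 67 (19.4%), in 7.31% of the 6815 detected genes with a window and in 4.01% of all 27025 genes of the table. The ETS core CCGGAAG, on either strand, was in 17 (25.4%), against 20.4% and 9.93%. A match describes the letters only. The 150 bases before the start are shown for Cycs, Ndufs3, Sdhd, Atp5o and Atp5pb, 5 of the genes at least 1.5-fold higher at both 0.85 and 8.5 Gy, chosen after their values were seen, and for the subunit c genes, whose values differed from each other. Each is on the minus strand and is written 5′ to 3′ along the gene, with the cores in capitals; where the NRF1 core lies on both strands at once, its matches overlap by all but 1 base.
Cycs, chr6:50566570-50566719: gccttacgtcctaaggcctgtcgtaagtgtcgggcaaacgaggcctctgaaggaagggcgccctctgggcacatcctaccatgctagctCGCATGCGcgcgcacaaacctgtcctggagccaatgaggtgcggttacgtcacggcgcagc
Ndufs3, chr2:90904722-90904871: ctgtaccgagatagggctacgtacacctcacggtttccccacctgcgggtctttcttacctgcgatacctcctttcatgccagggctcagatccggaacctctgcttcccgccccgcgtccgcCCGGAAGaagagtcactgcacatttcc
Sdhd, chr9:50603850-50603999: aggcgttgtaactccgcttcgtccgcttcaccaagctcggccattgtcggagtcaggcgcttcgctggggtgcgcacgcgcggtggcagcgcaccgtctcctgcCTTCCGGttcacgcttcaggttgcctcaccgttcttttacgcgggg
Atp5o, chr16:91931631-91931780: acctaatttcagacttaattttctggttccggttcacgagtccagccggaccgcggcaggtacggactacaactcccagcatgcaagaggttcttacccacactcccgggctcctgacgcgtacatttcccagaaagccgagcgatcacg
Atp5pb, chr3:105959264-105959413: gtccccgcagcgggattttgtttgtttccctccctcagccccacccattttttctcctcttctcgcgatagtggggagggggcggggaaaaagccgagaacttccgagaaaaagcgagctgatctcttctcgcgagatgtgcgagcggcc
Atp5g1, chr11:96075632-96075781: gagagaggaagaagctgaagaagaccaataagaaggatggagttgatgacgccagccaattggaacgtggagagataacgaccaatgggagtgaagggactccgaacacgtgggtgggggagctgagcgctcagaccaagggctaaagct
Atp5g2, chr15:102671048-102671197: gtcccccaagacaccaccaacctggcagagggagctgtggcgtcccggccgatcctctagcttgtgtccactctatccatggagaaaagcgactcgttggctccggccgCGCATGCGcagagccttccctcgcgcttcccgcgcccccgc
Atp5g3, chr2:73911327-73911476: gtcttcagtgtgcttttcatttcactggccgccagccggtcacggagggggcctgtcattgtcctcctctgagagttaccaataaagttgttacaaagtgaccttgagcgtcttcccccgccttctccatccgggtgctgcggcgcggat
Atp5g2 and Cycs held an NRF1 core, Ndufs3 and Sdhd an ETS core, and Atp5o, Atp5pb, Atp5g1 and Atp5g3 neither. Over all members, the genes that were higher did not hold a core clearly more often. At 0.85 Gy, 4 of the 12 genes with a window that were 1.5-fold higher held either core (33.3%), against 20 of the 55 others (36.4%). At 8.5 Gy it was 4 of 9 (44.4%), against 20 of 58 (34.5%). These shares are descriptions and were not tested.

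The size of the differences varied with the brightness of the probe. Among members with a mean raw intensity under 1000, the median log2 difference was 0.37 at 0.85 Gy and 0.46 at 8.5 Gy over 16 genes, against -0.01 and -0.05 over all 7045 genes of that band. At 1000 to 5000 the members' medians were 0.30 and 0.25 over 18 genes, against 0.03 and -0.01. At 5000 to 10000 they were 0.26 and 0.17 over 14 genes, against 0.01 and -0.03. At 10000 and over they were 0.09 and 0.01 over 30 genes, against 0.00 and -0.09 over 98. The members' median was thus above that of all genes in every band at these doses. All genes of a band include its members, which in the brightest band are 30 of the 98. At 17 Gy the members' medians were 0.04, -0.12, -0.07 and -0.04 from the dimmest band to the brightest. Complexes III and IV were the brightest, with median intensities at 0 Gy of 14300 and 11060. Those of complexes I, II and V were 5168, 3369 and 3490. The part of brightness in how the complexes differed was not tested. Across the 78 genes, level and difference had a Pearson correlation of -0.33 at 0.85 Gy and -0.29 at 8.5 Gy, and across all genes it was 0.01 and -0.04; the genes share the same arrays, and these are descriptions only.

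**Figure D3:**
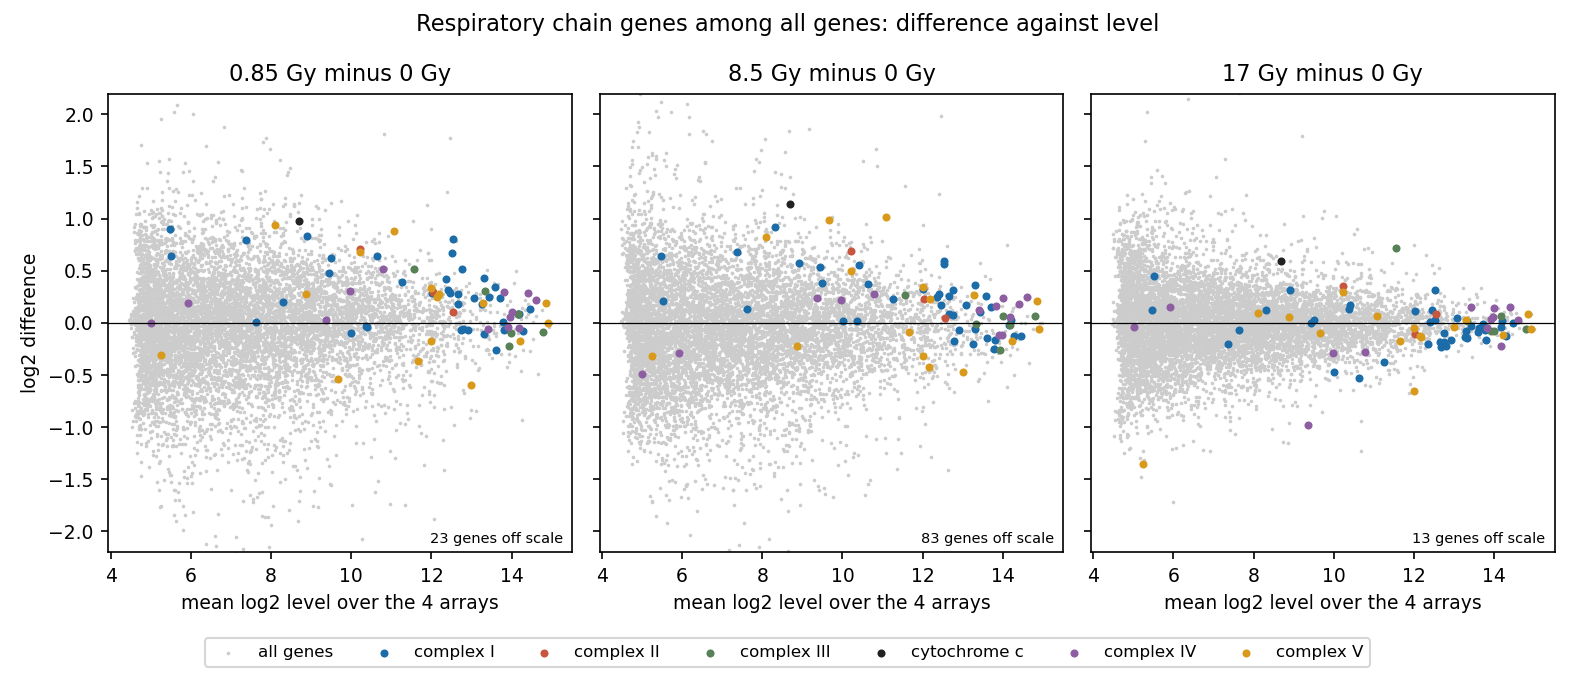
Log2 difference from the 0 Gy array (vertical axis) against mean log2 level over the 4 arrays (horizontal axis) for the 78 respiratory chain genes, coloured by complex, and for all 8383 genes in grey, with 23, 83 and 13 genes beyond the axis. At 0.85 and 8.5 Gy the dimmer members lie above 0 more than the brightest, whose median was 0.09 and 0.01.

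Probes of the same gene gave a check within the arrays. Of 13 genes with several detected probes, the dimmest probe had the more positive difference in 8 at 0.85 Gy, in 9 at 8.5 Gy and in 5 at 17 Gy. The gap between brightest and dimmest probe exceeded 0.3 in 6, 6 and 3 genes, and reached 1.05 for Atp5j at 0.85 Gy. Ndufs4, an accessory subunit with 4 detected probes, stood at 0.52, 0.24, -0.04 and -0.10 on them at 0.85 Gy, listed by size. Ndufv3 stood at -0.11 and -0.07 on its bright probes and at 0.81 on its dimmest. For some genes, then, probes of one symbol differed from each other by as much as members differed from 0.

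**Figure D4:**
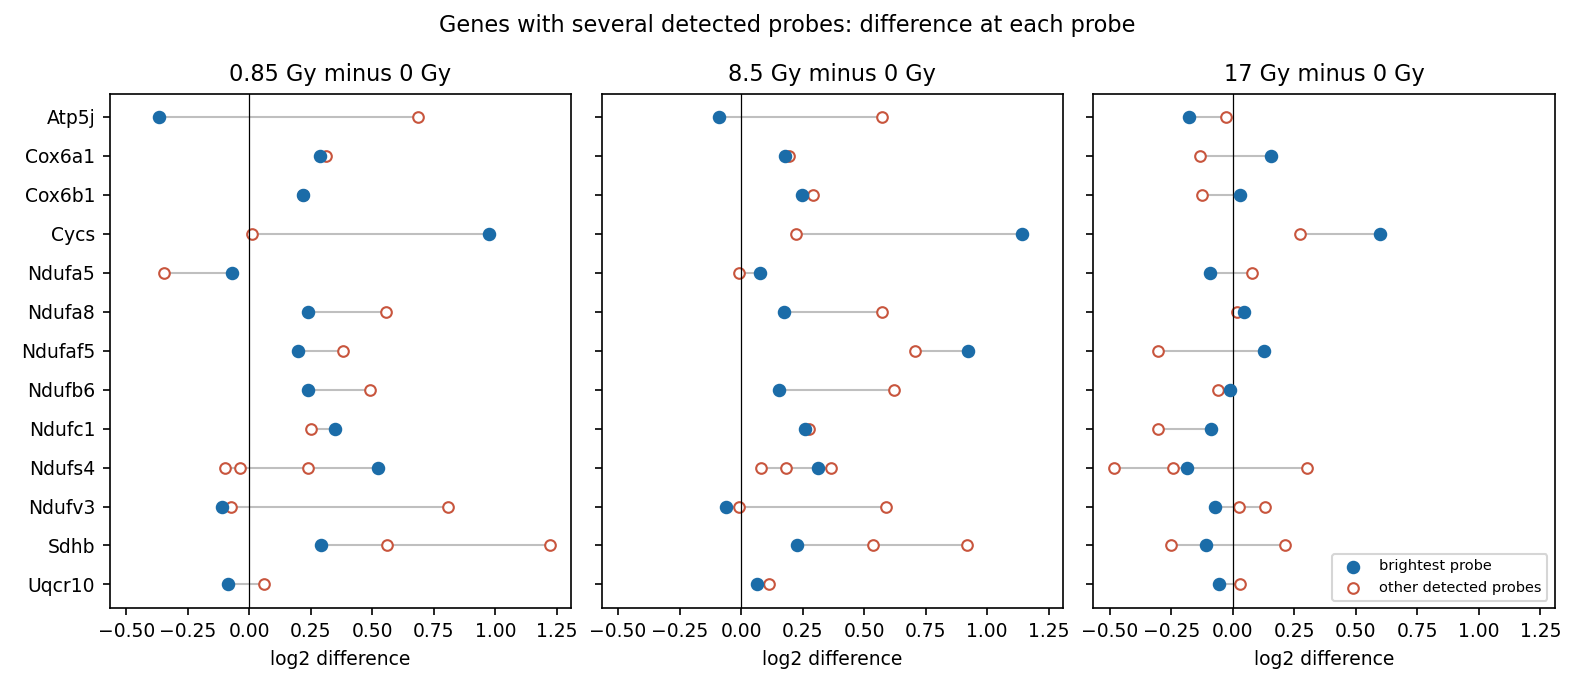
Log2 difference from the 0 Gy array (horizontal axis) at each detected probe of the 13 genes with several (vertical axis), for the 0.85, 8.5 and 17 Gy arrays; filled points are the brightest probe, open points the others. The probes of Cox6a1 and Cox6b1 lie close together at 0.85 Gy, and those of Atp5j, Cycs, Ndufv3 and Sdhb lie far apart.

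Related mitochondrial genes outside the rule were taken from lists of the same pathway. Of 31 detected assembly factors of the chain, 23 were above 0 at 0.85 Gy, 26 at 8.5 Gy and 14 at 17 Gy. Of all genes, 49.3%, 45.2% and 49.4% were above 0. The medians of the 31 were 0.30, 0.18 and 0.00. At least 1.5-fold higher were 4, 6 and 1 of them, against 8.72%, 8.73% and 4.76% of all genes. The numbers 1.5-fold lower were 1, 0 and 0, against 11.7%, 12.2% and 4.40% of all genes. Acad9, needed to build complex I, stood at 0.62, 0.75 and 0.27, and Cmc2, an assembly factor of cytochrome oxidase, stood at 0.87, 0.78 and 0.62. Coa7 stood at -0.81, 0.82 and -0.28. The 15 detected genes of the tricarboxylic acid cycle and pyruvate dehydrogenase had medians of 0.11, 0.18 and 0.03, with Pdhb, a subunit of pyruvate dehydrogenase, at 1.13, 0.71 and 0.09 and Dld at 0.80, 0.83 and 0.52. The 5 carriers and channels had medians of 0.37, 0.42 and 0.03. Among them, the phosphate carrier gene Slc25a3 had intensities of 2818, 6189, 5265 and 2626 and differences of 0.67, 0.57 and -0.18, and Vdac3, an outer membrane channel, stood at 0.39, 0.78 and 0.03.

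The 11 detected regulators had medians of 0.02, 0.07 and 0.11, with single genes far to either side. Tfam, which packages and transcribes mitochondrial DNA, had intensities of 246, 599, 513 and 364 and log2 differences of 1.20, 1.13 and 0.66, with the 0 Gy array lowest. Ppargc1a, the coactivator upstream of many of these genes, had intensities of 549, 156, 341 and 458 and differences of -3.05, -1.07 and -0.40, with the 0 Gy array highest. Esrra stood at 0.30, 0.18 and 0.31, and Tfb1m at 0.87, 0.25 and 0.30. Of the factors whose cores were searched in the promoters, Nrf1 stood at -0.04, -0.33 and -0.34, with intensities of 169 to 222. The GABP genes Gabpa and Gabpb1 stood at 0.02, 0.02 and -0.01 and at 0.46, 0.17 and 0.18, with intensities of 104 to 192. The 7 detected brown fat markers had medians of -0.14, -0.15 and -0.10. Above 0 were 1, 2 and 2 of them, against 49.3%, 45.2% and 49.4% of all genes. Among these markers Ucp1 stood at -0.12, 0.57 and 0.12. Dio2, Prdm16 and Zic1 of that list were not detected. The 5 detected macrophage markers had medians of 0.19, -0.22 and 0.94, and the 5 endothelial ones -0.28, -0.72 and -0.46. The part of cell type content in the respiratory chain values was not tested.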

How the data were processed

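Total RNA labelled with biotin was hybridised to Illumina mouse arrays, per the labels' protocols. The scanner's software is not given in the sources used here. In the deposited non-normalized table each probe has a linear bead intensity on each array and, as the deposited header names it, a detection p-value. Its lowest values lie well above 0, from which it is inferred that control background was not subtracted. The authors' normalized table holds intensity values with equal sorted columns, from which quantile normalization is inferred.

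From the non-normalized intensities of 26512 probes, neqc of limma 3.58.1 (R 4.3.3, offset 16) gave log2 levels; it was tested on simulated data. Python 3.11.15 with pandas 2.3.3 took the differences. Probes were named from the platform's annotation, and each gene was represented by its probe with the highest mean raw intensity. A gene counted as detected at p under 0.01 on at least 1 array. Every member probe had a p-value of 0 on at least 1 array, so none lay just inside that limit; Cox4i2 had 0.00881, 0.00763, 0.098 and 0 in order of dose. Just outside it lay Uqcrfs1, with a smallest p-value of 0.028. A fold against an undetected array is a bound: the bright level is divided by the dim array's own level or, where greater, the lowest level detected on that array. With 1 array at each dose nothing was tested. Members and lists were chosen with earlier results of these data known. The 1.5-fold limit was taken because those results showed few members 2-fold apart. Genes were named by a rule: the brightest of each complex, complex II and Cycs, the 4 largest and smallest differences of each comparison, genes 1.5-fold apart, those not detected on every array, isoform families, catalytic subunits, and genes of the context lists. Genes outside it, such as Ndufa9, Ndufb5, Ndufs4 and Atp5h, were named after their values were seen. Settings varied were background correction, scaling, offset, detection filter, probe choice and membership. The authors' normalized values entered as the log2 of each value plus 16.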

Additional observations from a re-analysis of the deposited data

How the results depend on the processing

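Scaling was the only choice that moved the medians over all members by more than 1.5 times. For the medians of single complexes, 102 alternative values were counted as the same and 33 as moved, so those medians depend on the setting. The direction of the median over the respiratory chain genes was kept in each of the 3 comparisons under all 9 alternative settings, and of 81 values for these medians and counts 68 lay within 1.5 times the reported one. Scaling to the 75th percentile in place of quantile normalization gave medians of 0.39, 0.31 and -0.11 at 0.85, 8.5 and 17 Gy; for the 38 members in the middle range of levels it gave 0.49, 0.40 and -0.13, beside 0.19, 0.11 and -0.04 for the 956 genes in that range. The count 1.5-fold higher at 0.85 Gy was 8 with the authors' normalized values, against 2.22% of all genes under that setting. The count lower there was 0 with those values and with scaling to the 75th percentile, against 4.39% and 12.4% of all genes. Without a detection filter 1 gene was lower at 8.5 Gy, against 6.59% of all genes. The count higher at 17 Gy was 1 without background correction, with scaling to the 75th percentile, with the authors' values, with the mean of all detected probes, with an offset of 50 and with the dimmest detected probe (chosen after seeing the data, as were the brightness bands); 2 to 3 genes were lower there in all settings, and Cycs, the gene lost, lay at 17 Gy between 0.27 and 0.60. Over the settings, Ndufb11 at 0.85 Gy lay between 0.33 and 0.90 and Ndufaf3 between 0.24 and 0.64, both under 1.5-fold without background correction. Cycs at 0.85 Gy lay between 0.01 and 1.04. Ndufs3, Sdhd, Atp5o and Atp5pb at 0.85 and 8.5 Gy, Atp5g1 at 8.5 Gy, and Cox7a2, Atp5a1 and Uqcrb at 17 Gy stayed past 1.5-fold in all 9. Each of these genes had a single detected probe, so the settings of detection filter, probe choice and membership repeated the reported value. Only those of background correction, scaling, offset and the authors' values could move it. In the level range of the members' middle, the share of all genes 1.5-fold higher was 3.45%, 3.14% and 0.941% and lower 7.01%, 5.54% and 0.837%. At 17 Gy, 0.752% of all genes were 1.5-fold higher and 0.441% lower with the authors' values, beside 4.76% and 4.40% as reported, with 1 and 2 members, so the members' share then lay above that of all genes. Signal near background limits Cox4i2, Cox6b2, Atp5k, Ndufb11 and Ndufaf3. No paired analysis was possible because each dose has 1 array.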
